A study of Mus musculus with 6 samples.

Results

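The 10 genes described here encode the PPAR, PGC-1 and estrogen-related receptor (ERR) regulators of energy metabolism in the heart. They were chosen by name as nuclear receptors and coactivators of this circuit, from a table of 44792 gene symbols: Ppara, Ppard, Pparg, Ppargc1a, Ppargc1b, Esrra, Esrrb, Esrrg, Rxra and Nrf1. RNA was sequenced from hearts of 6 untreated C57BL/6 mice aged 3 months. In 3 of them the thin filament protein cTnI (cardiac troponin I), which holds back contraction until calcium arrives, carried the R193H mutation, and the other 3 were wild type. The sources used here do not give zygosity, sex or how the mutation was introduced. The values are read counts per gene, here expressed as CPM, the counts of a gene relative to the library total, with totals scaled by the trimmed mean of M values (TMM).

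The adult heart draws most of its energy from fatty acids, and this small group of transcription factors sets the level of the enzymes that burn them. PPARs are lipid-sensing nuclear receptors that bind DNA with a retinoid X receptor (RXR) and switch on genes of fatty acid uptake and oxidation. ERRs are orphan receptors that act on genes of the citric acid cycle and the respiratory chain, NRF1 acts on genes of mitochondrial biogenesis, and the PGC-1 proteins are coactivators that bind these factors and raise their activity.

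Library totals ranged from 14736067 to 21852210 counts, and 3 counts, the limit that a count of 0 allows, corresponded to 0.135 to 0.213 CPM (counting error only). Mitochondrially encoded genes took between 30.9% and 36.8% of the counts, with the lowest share in R193H replicate 2. Tnni3, which encodes cTnI, was expressed in every heart, at 3202 to 3466 CPM in wild type and 3641 to 3900 CPM in R193H hearts. Counts per gene do not show the substituted base. Ventricular muscle markers summed to 68659 to 71723 CPM in wild type and 62419 to 67047 CPM in R193H hearts, and the skeletal muscle markers to at most 3.25 CPM. The table lists Tbx5, a cardiac transcription factor, at 0 in all 6 hearts, so a low or zero count in it need not mean little RNA. Macrophage markers, all 8 with a higher mean in the R193H group, summed to 190.0 to 225 CPM in wild type and 242 to 334 CPM in R193H hearts (median log2 fold change 0.54), and their part in the results that follow was not tested. In whole tissue, fewer cells of a type and less RNA per cell cannot be told apart.

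The 10 genes covered a wide range of listed levels, and a low count in this table need not mean little RNA. Divided by exon length, Ppara was highest in wild type hearts at 25.1 ± 2.36 CPM per kb (SD, n = 3), followed by Esrra at 19.5 ± 1.12, Ppargc1a at 19.2 ± 1.22 and Ppargc1b at 12.8 ± 1.12 CPM per kb. Esrrb stood at 6.58 ± 0.201 and Pparg at 5.10 ± 1.13 CPM per kb. The other 4 were far lower: Rxra at 0.363 ± 0.0320, Esrrg at 0.353 ± 0.0689, Ppard at 0.169 ± 0.0220 and Nrf1 at 0.0235 ± 0.0146 CPM per kb. In wild type hearts, Esrra and Ppargc1a overlapped in level, as did Rxra and Esrrg, while the other neighbours in this order did not. In R193H hearts the overlapping neighbours were Ppara and Esrra, Ppargc1a and Ppargc1b, and Rxra and Esrrg. Ppara thus stood above Esrra in 3 of 3 wild type hearts and in 1 of 3 R193H hearts.

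**Figure D1:**
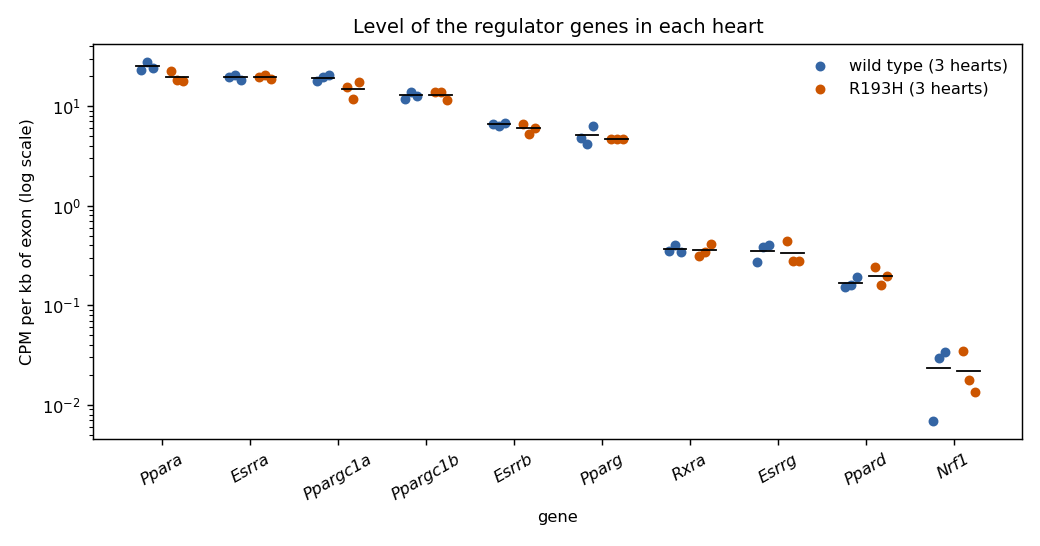
CPM per kb of exon (log scale) for the 10 regulator genes, with 1 point per heart and a line at the mean of 3 hearts of each genotype. Ppara, Esrra and Ppargc1a lead, and Rxra, Esrrg, Ppard and Nrf1 lie below 1 CPM per kb in every heart.

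The comparison implied by the design is that of mutant with wild type hearts. Of the 10 genes, 9 passed the filter on low counts and were tested. None passed the threshold (edgeR quasi-likelihood test, Benjamini-Hochberg adjusted p of 0.722 to 0.993 over 14370 genes), in a comparison where 0.00696% of all genes did, and none did in DESeq2 or limma-voom. At an unadjusted p under 0.05 there were 2, Ppara and Ppargc1a, against 5.73% of all genes. These 2 were also the only ones of the 9 with every R193H heart below every wild type heart, which held for 5.8% of all genes tested, and none had every R193H heart above, against 6.02%. The fitted log2 fold change was below 0 for 6 of the 9 and above 0 for 3, with a median of -0.090, while 49.9% of all genes were above 0 and their median was -0.00036.

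**Figure D2:**
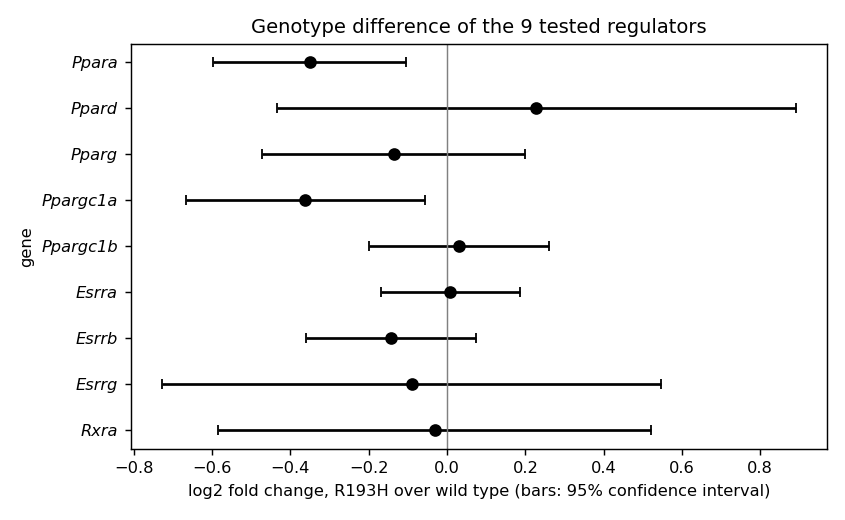
Log2 fold change of each tested regulator, R193H over wild type, with its 95% confidence interval from the edgeR fit. The intervals of Ppara and Ppargc1a lie below 0 before adjustment for the number of genes, and the other 7 include 0.

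Among the PPARs, Ppara encodes the receptor that drives fatty acid oxidation in heart muscle. It measured 89.1, 106 and 93.0 CPM in wild type replicates 1, 2 and 3, and 87.1, 69.9 and 69.2 CPM in R193H replicates 1, 2 and 3. The groups did not overlap, but R193H replicate 1 lay just under the lowest wild type heart. The R193H level was 0.784 of wild type (95% confidence interval 0.661 to 0.930), or -0.35 on the log2 scale (SE 0.11), and edgeR gave an adjusted p of 0.722. Its adjusted p ranged from 0.26 to 0.998 over 15 other settings, in each of which the direction was the same.

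Ppargc1a encodes PGC-1alpha, the inducible coactivator of mitochondrial biogenesis and oxidative metabolism. It measured 118, 128 and 134 CPM in the wild type hearts, and 103, 77.2 and 115 CPM in the R193H hearts. All 3 mutant hearts lay below the wild type hearts, R193H replicate 2 farthest. The R193H level was 0.778 of wild type (95% confidence interval 0.629 to 0.962), or -0.36 on the log2 scale (SE 0.14). The edgeR adjusted p was 0.793, and 0.283 to 0.998 over the other settings. Without R193H replicate 2 the difference was -0.21. That heart also had the most RNA of fibroblast markers, 2102 CPM summed beside 1258 to 1495 CPM in the other 5 hearts, and the part of this in the result was not tested.

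The gap of both genes held under other scalings but not without scaling. With DESeq2 size factors and with upper quartile scaling, Ppara stood at -0.35 and Ppargc1a at -0.36, both with separate groups. The TMM factors were 0.947 to 0.968 in wild type and 1.001 to 1.12 in R193H hearts. With unscaled library totals the median over all tested genes was 0.13, Ppara was at -0.22 and Ppargc1a at -0.25. Neither kept its gap between the groups. On that scale Ppara reached 88.8 CPM in R193H replicate 1, above the 85.2 of wild type replicate 1. Ppargc1a reached 115 in R193H replicate 3, above the 113 of wild type replicate 1. Markers of ventricular cardiomyocytes also had lower means on the TMM scale (10 of 12 genes, none past the threshold). Averaged over the list, they stood at -0.029, -0.12 and -0.074 from the wild type mean (log2) in R193H replicates 1, 2 and 3, and their part in these results was not tested. Relative to that list mean in each heart, Ppara differed by -0.28 (log2) with no overlap between the groups, and Ppargc1a by -0.31 with overlap. The Ppara groups were only narrowly apart, with wild type replicate 1 at -0.0969 and R193H replicate 1 at -0.109.

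**Figure D3:**
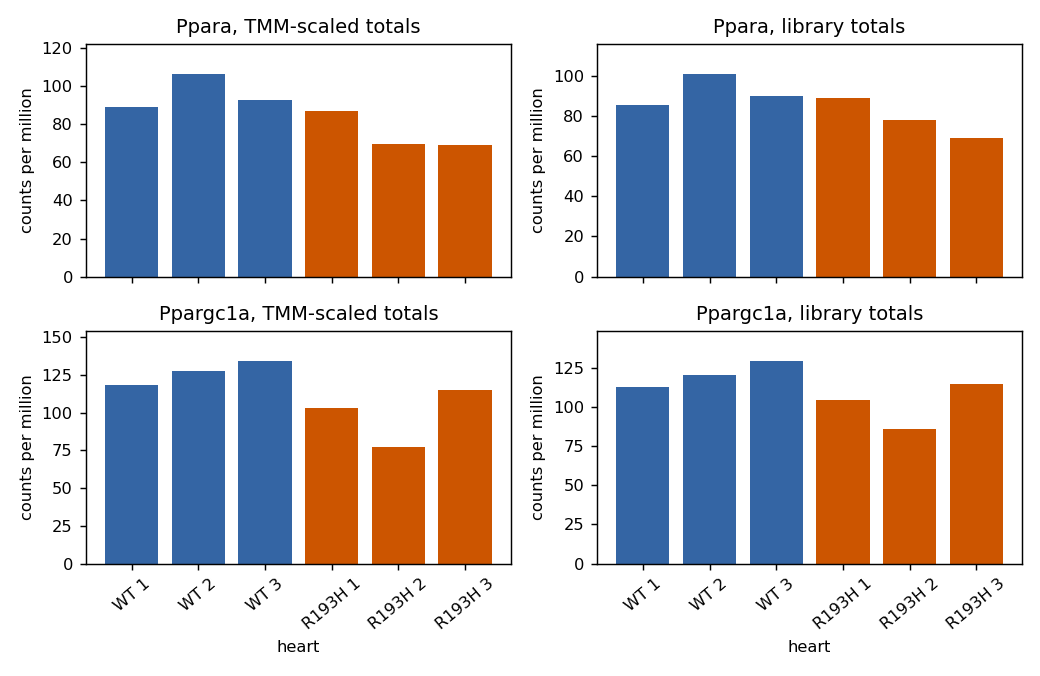
CPM of Ppara and Ppargc1a in each of the 6 hearts (bars, 1 heart each), with TMM-scaled totals at left and plain library totals at right. The groups are separate at left and touch at right, where Ppara in R193H replicate 1 (88.8) passes wild type replicate 1 (85.2).

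The proximal promoters of Ppara and Ppargc1a are printed because these are the 2 regulators whose groups of hearts were separate. They are RefSeq sequences on GRCm38.p6, from 250 bases before to 50 after the annotated start, 5′ to 3′ on the gene's strand, and capitals mark the motif matches found.
Ppara promoter, chr15:85735526-85735825, plus strand: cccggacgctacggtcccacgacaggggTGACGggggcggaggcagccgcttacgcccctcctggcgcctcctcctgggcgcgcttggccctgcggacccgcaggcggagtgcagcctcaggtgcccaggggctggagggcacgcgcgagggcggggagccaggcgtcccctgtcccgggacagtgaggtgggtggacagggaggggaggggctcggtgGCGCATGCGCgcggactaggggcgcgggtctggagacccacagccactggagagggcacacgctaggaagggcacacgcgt
Ppargc1a promoter, chr5:51567676-51567975, minus strand: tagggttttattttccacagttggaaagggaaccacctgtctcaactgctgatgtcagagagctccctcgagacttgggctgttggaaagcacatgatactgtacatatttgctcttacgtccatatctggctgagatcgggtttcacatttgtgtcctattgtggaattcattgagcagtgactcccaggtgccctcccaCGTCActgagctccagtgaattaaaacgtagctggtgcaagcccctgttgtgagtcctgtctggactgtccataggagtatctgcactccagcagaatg
The motifs searched, on both strands, were TCAAGGTCA (the ERR element), its core AAGGTCA, the direct repeat bound by PPAR and RXR (AGGNCA, any base, AGGNCA), the NRF1 element (GCGCA, any base, GCGC), TGACGTCA (the cAMP response element), its core TGACG and the MEF2 element (CTA, 4 of any base, TAG). The core matches include any full elements. In the Ppara window, GCGCATGCGC is an NRF1 match, a motif held by 4.6% of all 32851 promoters of this length. Both windows hold the core TGACG on one strand or the other, which 20.8% of all promoters do. RefSeq promoters were found for 9 of the 10 genes. Among their 17 promoters there were also matches to TGACG for Esrrb and Ppard, to AAGGTCA for 1 start of Rxra (4.72% of all promoters) and to the MEF2 element for 1 start of Esrrg (3.69%). Those last matches lie within these stretches.
Rxra, chr2:27709231-27709261, plus strand: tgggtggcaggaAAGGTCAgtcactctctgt
Esrrg, chr1:187608972-187609005, plus strand: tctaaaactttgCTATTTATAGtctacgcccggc
The promoters of Ppara and Ppargc1a differ in base composition, with 74.7% G and C for Ppara and 48.7% for Ppargc1a. None of the 17 promoters holds the full ERR element (0.423% of all promoters) or the direct repeat (0.381%). A match describes the letters and not the binding of a factor, and a missing match says only that these letters are not in this window.

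Ppard and Pparg, the other PPARs, showed no separation. Ppard, the widely expressed receptor of the family, rested on 16 to 40 counts per heart. It measured 1.14, 1.21 and 1.45 CPM in wild type and 1.80, 1.19 and 1.49 CPM in the mutant hearts (log2 fold change 0.23, SE 0.30). Pparg, the receptor of fat cell differentiation that endothelial cells and macrophages also use, measured 14.0, 12.4 and 18.8 CPM in wild type hearts. In R193H hearts it was almost constant, at 13.7, 13.8 and 13.7 CPM, inside the wild type range. Its log2 fold change was -0.14 (SE 0.15), and it turned to 0.058 without wild type replicate 3, the highest heart.

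The fat cell genes Adipoq and Cidec did not follow Pparg from heart to heart. Adipoq, which encodes the fat cell hormone adiponectin, measured 1.21, 4.06 and 1.002 CPM in wild type and 0.450, 3.20 and 1.07 CPM in R193H hearts. It was highest in replicate 2 of each genotype, as was the lipid droplet gene Cidec at 6.06 and 5.72 CPM. Pparg was at its lowest in that wild type heart. Lipe, another of the adipocyte markers, was likewise highest in replicate 2 of each genotype, at 60.2 and 76.4 CPM. Plin4, also on that list, went differently. It was highest in wild type replicate 3, as Pparg was, at 216 CPM, and lowest in R193H replicate 2, at 154 CPM. Fabp4, a fatty acid binding protein of fat cells and capillary endothelium, measured 379, 333 and 563 CPM in wild type hearts. Like Pparg, it was lowest in wild type replicate 2 and highest in wild type replicate 3. Pecam1, an endothelial marker, had the same order among wild type hearts, at 259.7, 249.96 and 294 CPM. In R193H hearts, where Pparg was almost constant, Pecam1 measured 285, 321 and 272 CPM and Fabp4 473, 486 and 458 CPM. Every R193H heart lay above the wild type mean (log2) for Pecam1 and Fabp4 and below it for Pparg. The 12 adipocyte markers together summed to 239 to 322 CPM in wild type and 241 to 279 CPM in R193H hearts. Most of each sum was Plin4, at 154 to 216 CPM over the 6 hearts. The sums thus say little about Adipoq and Cidec, at 0.450 to 4.06 and 0.651 to 6.06 CPM. Over the 8 tested markers the median log2 fold change was -0.064. That median rested on single hearts, at -1.02 without R193H replicate 2 and 0.67 without wild type replicate 2. The 8 endothelial markers summed to 1142 to 1413 and 1252 to 1407 CPM (median 0.10).

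**Figure D4:**
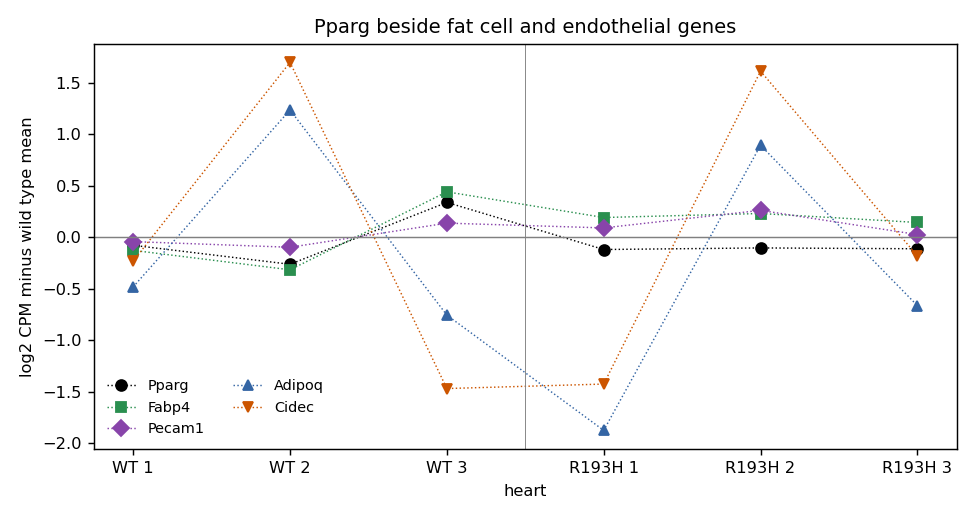
Log2 CPM relative to the wild type mean in each of the 6 hearts for Pparg, Fabp4, the endothelial marker Pecam1 and the fat cell genes Adipoq and Cidec, with dotted lines to guide the eye. Adipoq and Cidec peak in replicate 2 of both genotypes, whereas Pparg is highest in wild type replicate 3.

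Ppargc1b encodes PGC-1beta, the less inducible partner of PGC-1alpha. It measured 46.5, 55.5 and 50.8 CPM in wild type and 55.2, 55.4 and 45.6 CPM in R193H hearts, with a log2 fold change of 0.031 (SE 0.10). The groups overlapped, and the 95% confidence interval ran from 0.872 to 1.20 of the wild type level. The balance of the pair does not depend on library scaling. Ppargc1a made up 60.5%, 58.2% and 61.5% of the pair, per exon length, in wild type hearts and 53.1%, 45.7% and 60.4% in R193H hearts. The mean share was 60.1% ± 1.69 for wild type and 53.1% ± 7.33 for R193H (SD, n = 3 each), and R193H replicate 3 lay within the wild type range. The difference of -6.98 percentage points was -3.31 without R193H replicate 2 and -10.6 without R193H replicate 3. The exact two-sided permutation test over hearts gave p = 0.2, where 3 against 3 cannot go below 0.1, and 0.7 after adjustment over 7 shares.

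Esrra, the ERR that works closely with PGC-1alpha in heart muscle, was the steadiest of the 10 genes. It measured 85.3, 90.2 and 80.4 CPM in wild type and 86.3, 89.4 and 81.8 CPM in R193H hearts, a spread of 1.12-fold over all 6. Its log2 fold change was 0.0088 (SE 0.079), so that the 95% confidence interval ran from 0.890 to 1.14 of the wild type level. Of its exonic bases, 3.74% are shared with Trmt112 and Mir6990, and for the other 9 genes no exonic base is shared with another gene in GENCODE M21.

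Esrrb, best known as a stem cell and inner ear receptor, was listed above Esrrg, whose low counts need not mean little RNA. It measured 40.1, 38.5 and 40.9 CPM in wild type and 39.9, 31.6 and 36.6 CPM in R193H hearts. R193H replicates 2 and 3 lay below the wild type hearts and replicate 1 lay among them, giving a log2 fold change of -0.14 (SE 0.097). Esrrg, the ERR usually named with Esrra in oxidative muscle, rested on 24 to 61 counts per heart. It measured 1.70, 2.36 and 2.504 CPM in wild type and 2.74, 1.74 and 1.72 CPM in R193H hearts (log2 fold change -0.090, SE 0.29), with the lowest heart in the wild type and the highest in the mutant group. By exon length, Esrra made up 73.7% ± 1.70 of the ERR sum in wild type and 75.7% ± 2.68 in R193H hearts, Esrrb 25.0% ± 1.61 and 23.0% ± 2.47, and Esrrg 1.34% ± 0.275 and 1.28% ± 0.322, respectively (SD, n = 3 each). None of these shares differed beyond the spread of the hearts, with exact permutation p from 0.4 to 1. Ppara likewise made up 82.6% ± 3.86 and 80.1% ± 1.99 of the PPAR sum, with an exact permutation p of 0.5. Ppard took 0.556% ± 0.0643 of that sum in wild type and 0.807% ± 0.104 in R193H hearts, higher in all 3 R193H hearts, at the smallest exact permutation p the design allows (0.1, and 0.7 adjusted). Most of that sum is Ppara, whose mean was lower in R193H hearts (edgeR adjusted p = 0.722), while the mean CPM of Ppard was higher. The part of each in the share was not tested. The CPM of Ppard itself overlapped between the groups and rested on 16 to 40 counts per heart.

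Rxra encodes RXRalpha, a common DNA-binding partner of PPARs. It had only 27 to 48 counts per heart, at 1.92, 2.18 and 1.85 CPM in wild type and 1.71, 1.88 and 2.24 CPM in R193H hearts, with both extremes in the mutant group (log2 fold change -0.032, SE 0.25). Its relatives were listed far higher, though a low count in this table need not mean little RNA. Per exon length, Rxrg stood at 21.8 ± 2.16 and Rxrb at 8.54 ± 0.160 CPM per kb in wild type hearts, against 0.363 ± 0.0320 for Rxra. Nrf1 had 1, 5 and 7 counts in wild type and 8, 4 and 3 counts in R193H hearts, 13 and 15 in all, and did not pass the filter. At this depth a difference in Nrf1 was not detectable. The R193H fold of Rxra had a 95% confidence interval of 0.667 to 1.43, that of Esrrg 0.604 to 1.46 and that of Ppard 0.740 to 1.85, so these 3 genes bound the genotype difference only loosely.

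The genes lie on different chromosomes, apart from Pparg and Nrf1. On GRCm38, Ppara spans chromosome 15 from 85734983 to 85802819 and Ppargc1a chromosome 5 from 51454250 to 51567726. Esrra spans chromosome 19 from 6910977 to 6921813 and Pparg chromosome 6 from 115360951 to 115490399.

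The 6 hearts were then compared over the regulators as a group. Of the 9 tested, 5 in R193H replicate 1 and 2 each in R193H replicates 2 and 3 lay above their wild type mean, with median deviations of 0.0026, -0.10 and -0.12 on the log2 scale. In wild type replicates 1, 2 and 3 the counts were 2, 6 and 5. The members did not move as a block: in R193H replicate 2, Ppargc1a was at -0.71 and Ppara at -0.46, while Ppargc1b stood at 0.12 and Esrra at 0.069.

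Ppargc1a and Esrrg varied most over the 6 hearts among the tested regulators with a mean of at least 1 CPM (SD of log2 CPM 0.29 and 0.31). Ppargc1a had 1662 to 2674 counts per heart and Esrrg only 24 to 61. The part of counting error in the Esrrg pattern was not tested. Of 12004 other genes, those whose levels tracked Ppargc1a most closely included Ppp1r3c, which targets protein phosphatase to glycogen, and the zinc finger gene Zfp81. Their root mean square differences from it over the 6 hearts were 0.039 and 0.043 on the log2 scale. For Esrrg the closest were Med26, a Mediator subunit, Rtn4rl2, a receptor related to the Nogo receptor, and the transcription factor Jdp2, at 0.064, 0.075 and 0.088. With 6 hearts and so many genes, close patterns are found for any gene, and these are given as descriptions.

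The lists of partner and target genes had no member past the edgeR threshold in either direction. Coregulators and partner receptors had 16 of 20 tested members with a lower mean in R193H hearts and 4 with a higher one (median log2 fold change -0.081). Ncoa2, a coactivator of nuclear receptors, stood at -0.17 (SE 0.079) and the corepressor Ncor1 at -0.16 (SE 0.084), both with every R193H heart below every wild type heart. Separate groups were found for 3 members that were lower and 1 that was higher, beside 5.8% and 6.02% of all genes. The higher one was Prkaa1, a catalytic subunit of the energy sensor AMPK, at 0.12 (SE 0.088), named after its value was seen. The acetyltransferase Ep300 stood at -0.16 (SE 0.094), with overlap. Pprc1, the third PGC-1 family member, stood at 0.069 (SE 0.10), Rxrb at -0.066 (SE 0.077, groups separate) and Rxrg at -0.033 (SE 0.091). Perm1, a muscle gene induced by PGC-1 and ERR, is listed at 0 in every heart under its older symbol.

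PPAR target genes, from fatty acid uptake to oxidation, did not stand lower with Ppara. Of 34 tested, 20 had a higher mean in R193H hearts and 14 a lower one, with a median log2 fold change of 0.041 beside -0.00036 for all genes. The groups were separate for 4 genes that were higher and 1 that was lower, beside 6.02% and 5.8% of all genes. Plin5, a coat protein of lipid droplets, measured 59.5, 74.6 and 70.5 CPM in wild type and 89.6, 88.8 and 75.7 CPM in R193H hearts (log2 fold change 0.31, SE 0.11, edgeR adjusted p = 0.733). Acot2, a mitochondrial acyl-CoA thioesterase, stood at 0.30 (SE 0.11). The higher ones also included Fabp3, the heart fatty acid binding protein, at 0.14 (SE 0.085), and Plin2, another droplet coat protein, at 0.096 (SE 0.079), both named after their values were seen. Acadm, the medium-chain acyl-CoA dehydrogenase and a target of both receptors, was the lower one, at 1077, 1234 and 1256 CPM in wild type and 1029, 891 and 1024 CPM in R193H hearts (log2 fold change -0.28, SE 0.097, edgeR adjusted p = 0.746). Pdk4 and Angptl4, often used as readouts of PPAR activity, stood at 0.32 (SE 0.28) and 0.33 (SE 0.22), chosen after their values were seen, and their groups overlapped.

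ERR target genes stood mostly lower. For 22 of the 25 tested the R193H mean was the lower one, with a median log2 fold change of -0.12, and in 13 every R193H heart lay below every wild type heart, against 5.8% of all genes. Sdha, the flavoprotein subunit of complex II, measured 1492, 1567 and 1479 CPM in wild type and 1337, 1325 and 1383 CPM in R193H hearts (log2 fold change -0.17, SE 0.077). The 13 included the citric acid cycle genes Cs (-0.19, SE 0.087) and Mdh2 (-0.14, SE 0.079), and Atp5b of the ATP synthase (-0.15, SE 0.082), named after their values were seen. Vegfa, an angiogenic factor, stood at -0.29 (SE 0.12) with overlap. Cycs, cytochrome c, went the other way, at 0.12 (SE 0.073), the one list member with separate, higher R193H hearts.

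The ERR count of 13 on the TMM scale was 11 with DESeq2 size factors and 11 with upper quartile scaling. There, 5.65% and 5.71% of all genes were separate and lower. It was 0 under unscaled library totals, where 1.36% of all genes were. On the TMM scale without R193H replicate 2 it was 14, where 10.5% of all genes were. The list median was 0.0039 under library totals, beside 0.13 for all genes, and -0.12 on the TMM scale, beside -0.00036 for all genes. The list averaged -0.11, -0.15 and -0.064 from the wild type mean (log2) in R193H replicates 1, 2 and 3, and the ventricular muscle markers had a median log2 fold change of -0.11, or -0.040 without R193H replicate 2. Of these markers 5 of 12 were separate and lower, against 5.8% of all genes. The part of these markers and of the macrophage markers in the ERR counts was not tested. In the RefSeq promoters of this list, 14 of 22, from 12 genes, hold the core TGACG, a share of 63.6% beside 20.8% of all promoters, without matching for base composition. The NRF1 and biogenesis list had 12 of 24, or 50%, for the same core. The full ERR element was in 0 of the 22 and its core AAGGTCA in 2.

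Genes of NRF1 and mitochondrial biogenesis lay near 0. Of 22 tested, 13 had a lower and 9 a higher mean, with a median log2 fold change of -0.027. Polg, the mitochondrial DNA polymerase, stood at -0.11 (SE 0.078) and Gabpa, the DNA-binding subunit of NRF2, at -0.11 (SE 0.078), both with overlap. In 1 gene of the list, Cox4i1, every R193H heart lay below every wild type heart, and in 1, Cycs, above, shares near the 5.8% and 6.02% of all genes. Under library totals the median of this list was 0.098, that of the coregulators 0.049 and that of the PPAR targets 0.17, where that of all genes was 0.13.

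**Figure D5:**
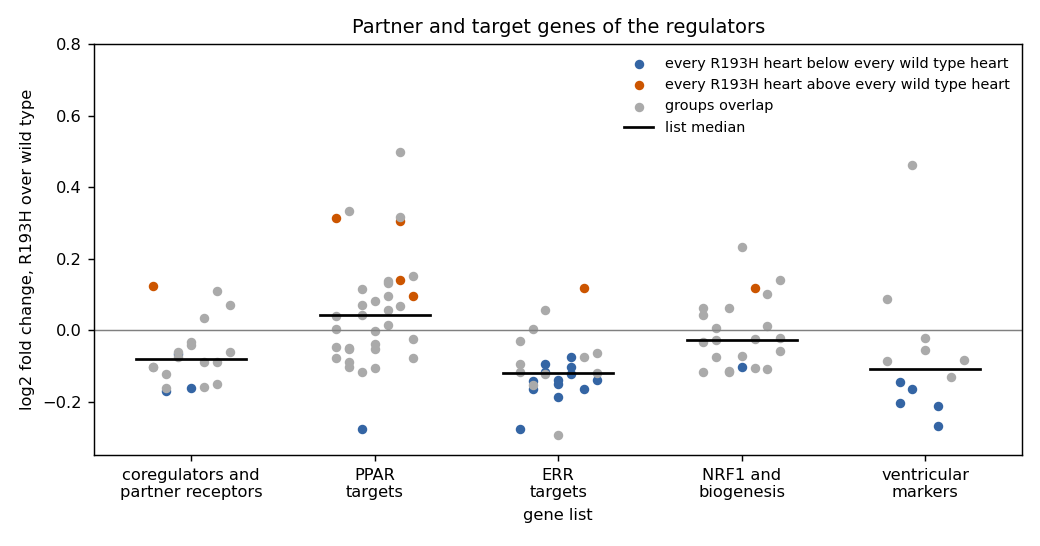
Log2 fold change, R193H over wild type, of each tested gene in 4 partner and target lists and in the ventricular muscle markers, with a line at each list median. Colours mark genes whose groups of hearts do not overlap, and the ERR targets have 13 lower and 1 higher such gene.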

How the data were processed

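The authors deposited raw read counts for all 6 hearts in 1 table, by gene symbol. The submitters' processing notes name HISAT2 2.0.4 and GRCm38. The sources used here do not give the counting program, its annotation, strand setting or treatment of reads matching several places, so genes with close relatives have uncertain counts. Columns were matched to hearts by title and groups came from the genotype label. Replicate numbers follow the order of listing and pair no hearts. The design text describes biological repeats, and every pair of hearts within a group differed by more than sampling noise (chi-square of 13.6 to 29.7 per degree of freedom, genes whose 2 counts sum to 20 or more).

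The test was edgeR 4.0.16's robust quasi-likelihood test in R 4.3.3, after filterByExpr and TMM scaling, with no covariate. The filter kept 14370 genes, p-values were adjusted by Benjamini-Hochberg over all of them, and the threshold was 0.05. Each SE is the fitted log2 fold change divided by the square root of its F statistic. CPM use the TMM-scaled totals and log2 CPM add 0.5 counts. Exon lengths are unions of GENCODE M21 exons, which matched 80.5% of the symbols with a count and all 10 regulators. In 3 simulated sets of 14370 genes for this comparison, the test called 32.8% of the 1.5-fold changes, 73.6% of the 2-fold changes and 93.4% of the 4-fold changes, with 20 false calls in all. Each set held 200 changed genes, and the spread of each gene was taken from the trend over level and not from the gene itself. These rates therefore need not hold for single regulators in the real data.

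The regulators, gene lists, tests and naming rule were chosen with earlier results of these data known. The rule names all 10 regulators, up to 3 genes of each list by p, and 3 genes for each of the 2 most variable regulators by likeness. A gene that the rule names is not reported here. Of the marker lists, those not described in full were atrial (median log2 fold change -0.80), fibroblast (0.22), pericyte and smooth muscle (0.086), erythroid (-1.95) and skeletal muscle (0.17). Erythroid content was uneven within wild type, and atrial content within both groups. Erythroid markers summed to 3096, 257 and 2976 CPM in wild type replicates 1, 2 and 3, and to 476 to 630 CPM in R193H hearts. Atrial markers summed to 87.1 to 730 CPM in wild type and 148 to 307 CPM in R193H hearts. Averaged over the tested atrial genes (log2, from the wild type mean), wild type replicates 1, 2 and 3 stood at 2.58, 1.35 and -3.93. R193H replicates 1, 2 and 3 stood at -1.74, 1.14 and -1.49. The part of either in the results was not tested. Alternatives were other scalings, filters and tests (DESeq2 1.42.0, limma 3.58.1 with voom) and each heart left out. Counts of separate groups under other settings were added after seeing the data.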

Additional observations from a re-analysis of the deposited data

How the results depend on the processing

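No regulator passed the threshold in any of the 15 alternatives, and Ppara, Ppargc1a, Esrrb and Ppard kept their direction in each of them. The number of genes called over the whole table was 1 with edgeR. It was 0 without mitochondrial genes, a setting that leaves out that 1 gene, which is mitochondrially encoded. It was 38 without a filter and 42 with DESeq2. With single hearts left out it was 3 to 21, the 21 without R193H replicate 3. Under library totals, 0 regulators and 0 ERR targets had separate, lower R193H hearts, against 1.36% of all genes, and Esrrg and Rxra turned to 0.032 and 0.093. With single hearts left out these counts were 2 to 4 and 13 to 16, while the share of all genes was 9.47% to 12.5% in place of 5.8%, and the 4 regulators without wild type replicate 2 were Ppara, Ppargc1a, Pparg and Esrrb. The log2 fold change then ran from -0.031 to 0.13 for Ppargc1b, -0.14 to 0.051 for Rxra, -0.26 to 0.058 for Pparg, -0.033 to 0.050 for Esrra, -0.35 to 0.032 for Esrrg, 0.072 to 0.37 for Ppard and -0.22 to -0.056 for Esrrb, the last 2 with their ends without R193H replicates 1 and 2. The Esrrg share difference ran from -0.242 to 0.0648 percentage points. Apart from that mitochondrially encoded gene, the cause of these shifts was not tested. Few counts limited the precision for Esrrg, Rxra, Ppard and Nrf1. No paired analysis was possible because the labels give no replicate numbers.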
